A study of Mus musculus with 7 samples.

Results

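The genes that load peptides onto major histocompatibility complex (MHC) class I, together with the subunits of the immunoproteasome, were followed in 7 whole colon tumors of mice. The set was given by name as 10 genes, B2m, H2-K1, H2-D1, Tap1, Tap2, Tapbp, Psmb8, Psmb9, Psmb10 and Nlrc5, out of 43346 genes in the count table. All 10 were found by symbol and all 10 had enough counts to be tested. Per the labels the recipients were wild-type C57BL6/J mice, 8 weeks old, whereas the study's methods describe a congenic CD45.1 strain and a younger age. They were irradiated and received bone marrow (BM) that was either Dnmt3a+/+ (3 tumors) or Dnmt3a+/- (4 tumors). Donors of both kinds carried Mx1-Cre, an interferon-inducible Cre, and received poly(I:C), and the heterozygous donors lost Dnmt3a, a DNA methyltransferase, from 1 floxed allele. The tumor epithelium and stroma belonged to the wild-type host, so the deletion was carried by graft-derived blood cells only. All recipients then received the carcinogen azoxymethane (AOM, 10 mg/kg, once) and 3 cycles of 3% dextran sulfate sodium (DSS), which together produce colitis-associated colon tumors. The sample descriptions begin with BMT18 for 4 tumors (2 of each graft) and with BMT8 for 3 (1 Dnmt3a+/+ and 2 Dnmt3a+/-); these prefixes are read here as transplantation experiments, which the labels do not spell out.

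Each tumor had between 38472738 and 64314999 counts, and 15810 genes passed the filter on low counts. Levels are given as CPM, counts scaled by TMM to a common library size, and the lowest adjusted p of any gene was 0.361 in edgeR's quasi-likelihood test. Dnmt3a RNA ranged from 20.2 to 24.3 CPM with Dnmt3a+/+ BM and from 22 to 43 CPM with Dnmt3a+/- BM, and edgeR put the log2 fold change at 0.43 (adjusted p = 0.542). Since host cells kept both alleles, that level does not check the labels. Summed levels of 10 colon epithelial markers ran from 10816 to 38798 CPM, and Epcam was at least 1543 CPM in every tumor, while 10 pan-leukocyte markers summed to between 88.8 and 274 CPM.

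MHC class I molecules carry short peptides from inside the cell to its surface, where CD8 T cells read them. A heavy chain (H2-K1 and H2-D1 in this strain) pairs with β2-microglobulin (B2m), the Tap1-Tap2 transporter pumps peptides into the endoplasmic reticulum, and tapasin (Tapbp) holds the empty heavy chain beside the transporter. Interferons switch on Psmb8, Psmb9 and Psmb10, which replace Psmb5, Psmb6 and Psmb7 as the cutting subunits of the proteasome, and Nlrc5 is the transactivator that acts on class I promoters. Almost all nucleated cells make class I molecules. RNA of a whole tumor sums epithelial, stromal and blood cell contributions, so fewer cells of a type cannot be told apart from less RNA per cell.

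Most of the set sits in the MHC on chromosome 17 of GRCm38. In the GENCODE annotation Psmb9 (34181987 to 34187764, minus strand), Tap1 (34187553 to 34197225, plus strand), Psmb8 (34197721 to 34201454, plus strand) and Tap2 (34203527 to 34216321, plus strand) are neighbors. Tapbp lies from 33915899 to 33929292, H2-K1 from 33996017 to 34000347 and H2-D1 from 35262730 to 35267499 on the same chromosome. B2m is on chromosome 2 from 122147686 to 122153083, and Psmb10 (105935735 to 105938444) and Nlrc5 (94434356 to 94527272) are both on chromosome 8. Psmb9 and Tap1 overlap by 212 bases on opposite strands, and the strand setting of the counting is not given in the sources used here, so reads from those bases could have gone to either gene. Tapbp shares 3422 bases with Zbtb22 on the same strand, and the counts of Zbtb22 came to 16.6% of those of Tapbp.

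Class I promoters are known for a conserved module in which an X2 box, read by CREB and ATF factors, stands upstream of a Y box read by NF-Y, and Nlrc5 acts through the complex formed there. RefSeq promoters (GRCm38.p6, 250 bases before to 50 after the start site) were available for 8 of the 10 genes, all but Tap2 and Nlrc5. The letters TGACG followed by ATTGG on the same strand, with 14 to 24 bases between them and both strands searched, were present for 3 of the 8, B2m, H2-K1 and H2-D1, against 0.42% of all 32851 promoters. The stretches are shown because they hold the module found for the heavy and light chains. The X2 core and the Y box are in capitals, each stretch 5′ to 3′ on the coding strand. They lie at chr2:122147599-122147643 (plus) for B2m, chr17:34000354-34000398 (minus) for H2-K1 and chr17:35262983-35263027 (plus) for H2-D1.
B2m: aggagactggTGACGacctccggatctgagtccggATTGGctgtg
H2-K1: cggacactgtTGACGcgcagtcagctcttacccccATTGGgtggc
H2-D1: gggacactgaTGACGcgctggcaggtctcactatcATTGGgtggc
The gap between the boxes was 20 bases in all 3 genes. H2-K1 and H2-D1 shared 36 of 45 bases (80%), and H2-K1 and B2m shared 22 of 45 (48.9%). Both counts include the bases of the X2 core and the Y box, which the search required to be the same. Searched singly on both strands, TGACG was in 5 of the 8 promoters (20.8% of all promoters) and ATTGG in 6 of the 8 (37.4%). A tandem interferon element, the form read by interferon regulatory factors, was in 1 of the 8 (3.44%), in B2m. AANNGAAA, which overlaps the tandem form, was in 3 of the 8 (23.9%). These matches describe letters in a window and were not tested as binding sites.

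Psmb9 and Tap1 are read in opposite directions from a shared promoter. The 225 bases between their RefSeq start sites, chr17:34187331-34187555 of GRCm38 on the plus strand, are shown because both genes start from them, with CCAAT (the Y box read on the other strand) and TGACG in capitals.
Psmb9-Tap1: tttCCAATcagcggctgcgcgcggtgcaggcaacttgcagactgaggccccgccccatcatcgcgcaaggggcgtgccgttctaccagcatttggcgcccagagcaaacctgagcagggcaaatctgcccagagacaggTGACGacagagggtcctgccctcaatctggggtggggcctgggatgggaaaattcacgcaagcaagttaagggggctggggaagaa

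All 10 genes had lower mean levels with Dnmt3a+/- BM, and none passed the test between grafts. A gene was called where its log2 fold change was beyond 1 in either direction and its adjusted p was under 0.05, and edgeR called 0 of the 10 against 0% of all genes tested. DESeq2 also called 0 of the 10, although it called 1.90% of all genes. At an unadjusted p under 0.05, 3 of the 10 were lower in edgeR, against 5.20% of all genes tested, and 4 of the 10 in DESeq2, against 5.61%. The median log2 fold change of the set was -0.97, and that of all genes was 0.0025. A negative log2 fold change was found for 10 of the 10 genes and for 49.8% of all genes, and 1 below -0.8 for 8 of the 10 and for 4.75% of all genes. The median was -0.44 without Dnmt3a+/+ replicate 3, and 0 of the 10 then had an unadjusted p under 0.05. Of all genes, 6.19% were then lower at that threshold.

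**Figure D1:**
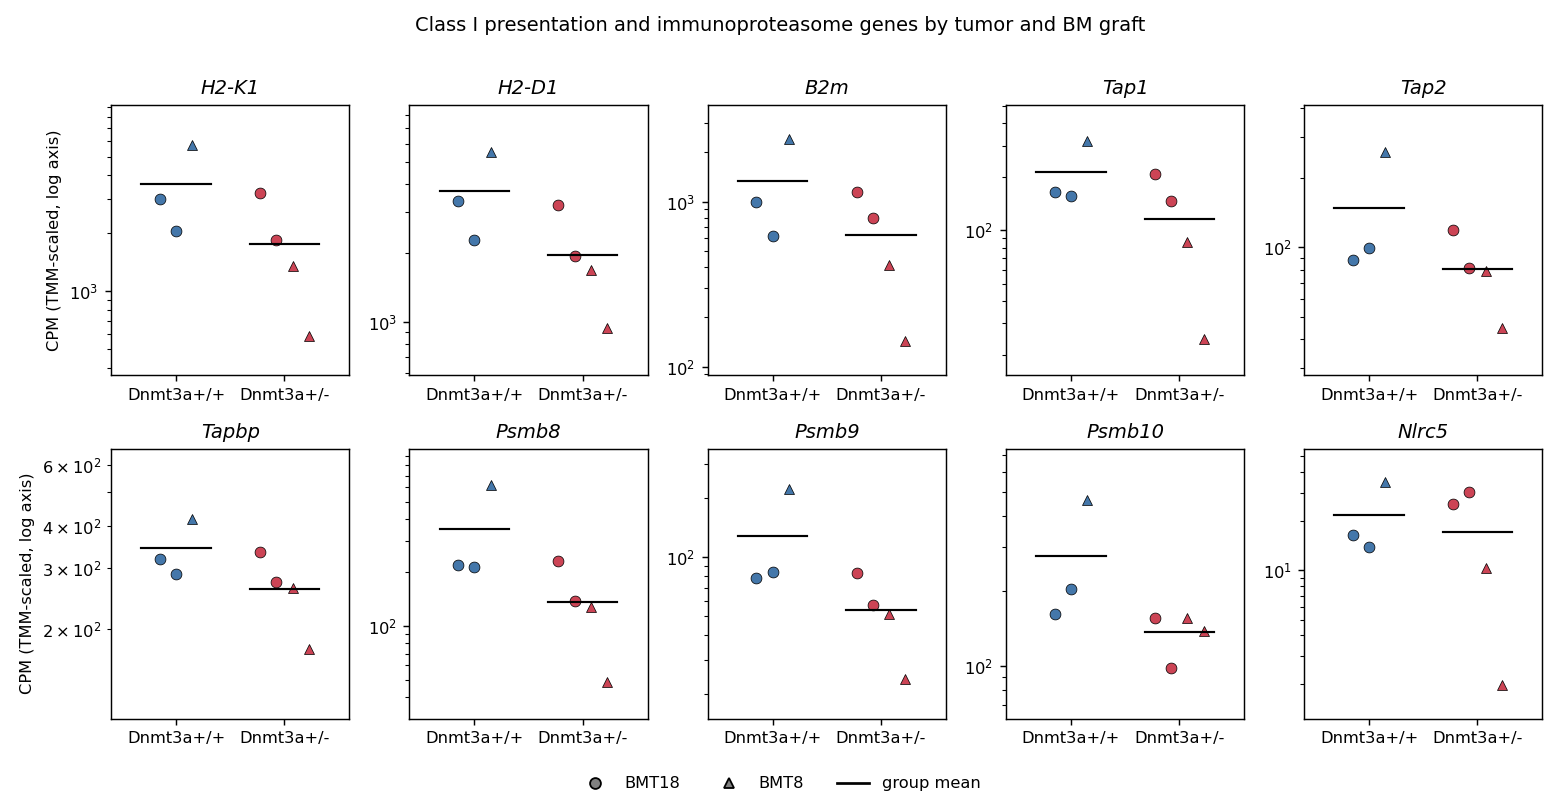
Level of each of the 10 genes in each tumor, in TMM-scaled CPM on a log axis whose range differs between panels, for 3 tumors with Dnmt3a+/+ BM (blue) and 4 with Dnmt3a+/- BM (red). Circles are BMT18 tumors, triangles are BMT8 tumors and bars are group means; in every panel the highest point is the Dnmt3a+/+ triangle, and only for Psmb10 do all red points lie below all blue points.

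H2-K1, 1 of the classical heavy chains, was at 3008, 2061 and 5771 CPM in Dnmt3a+/+ replicates 1, 2 and 3, and at 3225, 1848, 1348 and 588 CPM in Dnmt3a+/- replicates 1 to 4. The groups overlapped, because Dnmt3a+/- replicate 1 was above 2 of the 3 control tumors. The log2 fold change of H2-K1 was -1.04 ± 0.57 (adjusted p = 0.533, edgeR; errors of log2 fold changes are standard errors). H2-D1, the other classical heavy chain, was at 3351, 2278 and 5514 CPM with Dnmt3a+/+ BM and at 3243, 1935, 1684 and 935 CPM with Dnmt3a+/- BM. Here 3 of the 4 Dnmt3a+/- tumors were below every control tumor, and the log2 fold change of H2-D1 was -0.93 ± 0.46 (adjusted p = 0.496, edgeR). B2m, the light chain common to all class I molecules, was at 1001, 620.2 and 2397 CPM with Dnmt3a+/+ BM and at 1149, 799, 411 and 142 CPM with Dnmt3a+/- BM. Dnmt3a+/+ replicate 3 and Dnmt3a+/- replicate 4, both from BMT8, stood at the ends of that range and differed 16.8-fold. The log2 fold change of B2m was -1.10 ± 0.70, with a 95% confidence interval from -2.73 to 0.54 (adjusted p = 0.592, edgeR).

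Per kilobase of exon the light chain was the most abundant of the set, with 1557 CPM per kb with Dnmt3a+/+ BM, followed by H2-D1 at 1440.3 and H2-K1 at 1229.9 CPM per kb. With Dnmt3a+/- BM, H2-D1 (756 CPM per kb) and B2m (727 CPM per kb) had changed places, by less than the spread between tumors. Psmb10 at 163, Psmb8 at 104 and Tapbp at 94.5 CPM per kb came next with Dnmt3a+/+ BM. The transporter subunits Tap2 and Tap1, at 39.2 and 38.7, and the immunoproteasome subunit Psmb9, at 35.2 CPM per kb, were close to each other. Nlrc5 was the least abundant, at 2.56 CPM per kb with Dnmt3a+/+ BM and 2.01 CPM per kb with Dnmt3a+/- BM.

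Tap1, which forms the peptide transporter with Tap2, was at 164, 157 and 316 CPM with Dnmt3a+/+ BM and at 208, 146, 86.5 and 24.5 CPM with Dnmt3a+/- BM. The lowest tumor, Dnmt3a+/- replicate 4, held 3.53-fold less than the next lowest, and the log2 fold change of Tap1 was -0.87 ± 0.62 (adjusted p = 0.633, edgeR). Tap2 was at 88.5, 99.1 and 258 CPM with Dnmt3a+/+ BM and at 119, 81.7, 78.7 and 44.8 CPM with Dnmt3a+/- BM. The estimate for Tap2 was also -0.87, with a standard error of 0.45 (adjusted p = 0.511, edgeR). Tapbp, the tapasin bridge between transporter and heavy chain, varied least of the 10 genes, by 2.39-fold from the lowest to the highest tumor. It was at 320.0, 289.7 and 419 CPM with Dnmt3a+/+ BM and at 336, 274, 262 and 175 CPM with Dnmt3a+/- BM (log2 fold change -0.39 ± 0.25, adjusted p = 0.584, edgeR).

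Psmb8, which replaces Psmb5 in the immunoproteasome, had the most negative log2 fold change of the set, at -1.37 ± 0.56 (unadjusted p = 0.0415, adjusted p = 0.435, edgeR). It was at 219.9, 213 and 619.5 CPM with Dnmt3a+/+ BM and at 230.4, 137, 128 and 48.3 CPM with Dnmt3a+/- BM. Dnmt3a+/- replicate 1 lay within the control range and the other 3 below it. Psmb9, which replaces Psmb6, was at 78.7, 84.4 and 224 CPM with Dnmt3a+/+ BM and at 83.1, 57.4, 51.2 and 24.1 CPM with Dnmt3a+/- BM. For Psmb9 the log2 fold change was -1.26 ± 0.49 (unadjusted p = 0.0344, adjusted p = 0.425, edgeR), and again only Dnmt3a+/- replicate 1 overlapped the controls. Psmb10, which replaces Psmb7, was at 162, 204 and 466 CPM with Dnmt3a+/+ BM and at 156, 98.4, 155 and 138 CPM with Dnmt3a+/- BM. All 4 Dnmt3a+/- tumors were below all 3 control tumors, by a narrow margin between 156 and 162 CPM; this held for 1 of the 10 genes and for 6.32% of all genes tested. The log2 fold change of Psmb10 was -1.02 ± 0.37 (unadjusted p = 0.0254, adjusted p = 0.408, edgeR). Psmb10 differed from the other genes in its lowest tumor, which was Dnmt3a+/- replicate 2 and not replicate 4.

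Nlrc5, the class I transactivator, was at 16.5, 13.9 and 34.9 CPM with Dnmt3a+/+ BM and at 25.6, 30.5, 10.4 and 1.97 CPM with Dnmt3a+/- BM. The groups overlapped widely, with 2 of the Dnmt3a+/- tumors above 2 of the controls and the other 2 below all controls. Its log2 fold change was -0.35 ± 0.78, with a 95% confidence interval from -2.17 to 1.47 (adjusted p = 0.912, edgeR). Without Dnmt3a+/- replicate 4, which had 73 counts of Nlrc5 against 510 or more in every other tumor, the log2 fold change was 0.025.

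Values within each experiment were taken after those of single tumors had been seen, and are a description. In BMT18 the median difference over the 10 genes in mean log2(CPM + 0.5), Dnmt3a+/- minus Dnmt3a+/+, was -0.017, with 6 of the 10 lower. In the edgeR fit of BMT18 alone, H2-K1 and Tapbp were marginally above 0, so that 4 of the 10 were lower with a median of 0.0091, and Nlrc5 was higher (log2 fold change 0.90, unadjusted p = 0.0156 in edgeR, not called after adjustment). In BMT8 the median difference in mean log2(CPM + 0.5) was -2.67, with 10 of the 10 lower. The BMT8 difference rests on a single control tumor, Dnmt3a+/+ replicate 3. That tumor was the highest of all 7 for each of the 10 genes, by 1.31-fold (Tapbp) to 2.82-fold (Psmb8) over the next, and Dnmt3a+/- replicate 4 was the lowest of all 7 for 9 of the 10. The difference between experiments (the interaction of graft and experiment, BMT8 minus BMT18, edgeR) ran from -0.94 for Tapbp to -3.38 for B2m and Nlrc5 on the log2 scale. With Dnmt3a+/+ replicate 3 as the only control tumor of BMT8, these values cannot decide whether the experiments differ.

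**Figure D2:**
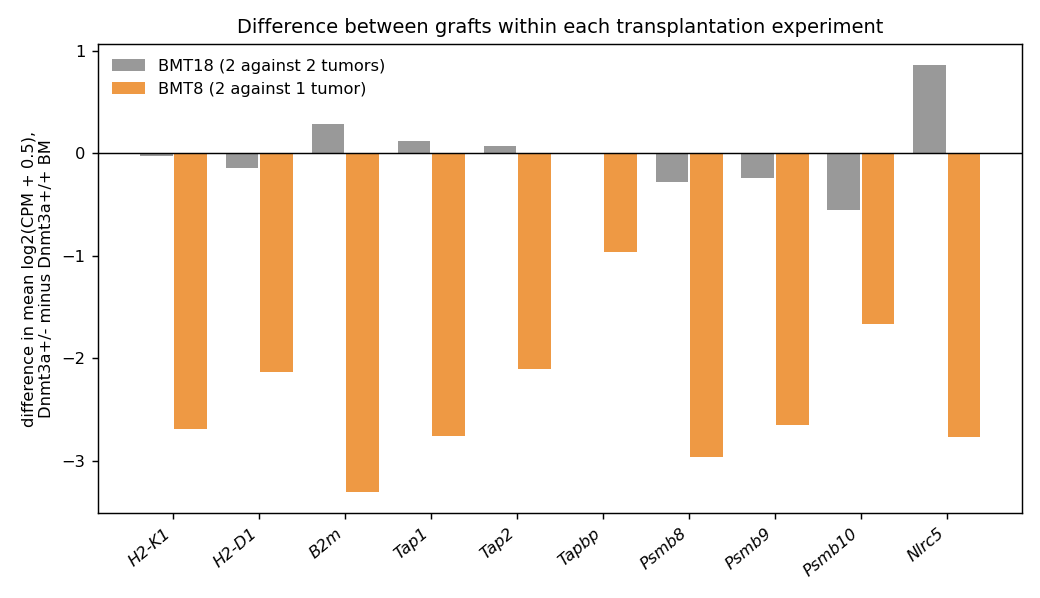
Difference in mean log2(CPM + 0.5) between tumors with Dnmt3a+/- and Dnmt3a+/+ BM for each of the 10 genes, within BMT18 (gray, 2 tumors against 2) and within BMT8 (orange, 2 tumors against 1), with no error bars because 1 arm of BMT8 is a single tumor. BMT8 bars run from -0.97 for Tapbp to -3.30 for B2m, while BMT18 bars run from -0.55 for Psmb10 to 0.86 for Nlrc5.

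Between the experiments the genes kept a partly different order. B2m was 5.83-fold higher in Dnmt3a+/+ replicate 3 than in Dnmt3a+/- replicate 3, and 16.8-fold higher than in Dnmt3a+/- replicate 4. Psmb10 differed by 3.00-fold and 3.37-fold in the same 2 comparisons. In BMT18, B2m averaged 811 CPM with Dnmt3a+/+ BM and 974 CPM with Dnmt3a+/- BM, and Nlrc5 averaged 15.2 and 28.0 CPM. Psmb10 was the gene with the most negative difference in BMT18, with averages of 183 and 127 CPM. With the experiment as a covariate, Psmb10 alone of the 10 had an unadjusted p under 0.05 (log2 fold change -1.003 ± 0.29, unadjusted p = 0.0108, adjusted p = 0.263, edgeR), against 7.32% of all genes lower at that threshold.

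RNA of each immunoproteasome subunit was set against that of the constitutive subunit it replaces, as a ratio of counts within each tumor. Such a ratio cancels scaling between libraries but does not measure which subunits the proteasomes held. The constitutive genes themselves had log2 fold changes close to 0, -0.11 for Psmb5, -0.25 for Psmb6 and -0.07 for Psmb7, with 95% confidence intervals that all included 0, and with library size alone as scaling Psmb5 and Psmb7 were on the other side of 0 (0.12 and 0.14). Psmb5 was at 168, 161 and 271 CPM with Dnmt3a+/+ BM and at 144, 173, 181 and 243 CPM with Dnmt3a+/- BM. Unlike for Psmb8, Dnmt3a+/- replicate 4 was here the second highest tumor.

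For each count of Psmb5 there were 1.31, 1.33 and 2.28 counts of Psmb8 in the Dnmt3a+/+ tumors, and 1.605, 0.792, 0.708 and 0.199 in the Dnmt3a+/- tumors. The mean log2 ratio of the 3 control tumors was 0.66 (SD 0.46, n = 3) and that of the 4 Dnmt3a+/- tumors -0.62 (SD 1.25, n = 4), which differed by -1.29 (two-sided exact permutation test, p = 0.171). For each count of Psmb6 there were 0.410, 0.485 and 0.689 counts of Psmb9 with Dnmt3a+/+ BM and 0.490, 0.379, 0.274 and 0.0894 with Dnmt3a+/- BM. The difference in the log2 ratio of Psmb9 to Psmb6 was -0.99 (two-sided exact permutation test, p = 0.2). In both pairs 3 of the 4 Dnmt3a+/- tumors were below all controls, and Dnmt3a+/- replicate 1 was not.

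For each count of Psmb7 there were 0.841, 1.02 and 1.53 counts of Psmb10 with Dnmt3a+/+ BM and 0.789, 0.508, 0.750 and 0.483 with Dnmt3a+/- BM. All 4 Dnmt3a+/- tumors were below all 3 controls. Psmb7 itself was at 193, 201 and 304 CPM with Dnmt3a+/+ BM and at 197, 194, 207 and 286 CPM with Dnmt3a+/- BM. The low ratio of Dnmt3a+/- replicate 4 thus went with a high level of Psmb7, while Psmb10 was not lowest there. The difference in the log2 ratio was -0.83, with p = 0.0286 in a two-sided exact permutation test, the smallest p that 35 splits of 4 against 3 tumors can give, and 0.0857 after Benjamini-Hochberg adjustment over the 3 ratios. The difference was -0.55 within BMT18 and -1.35 within BMT8, and shuffling within experiments gave an exact permutation p of 0.0556, the smallest that the 18 arrangements within experiments can give. The other pairs differed more between experiments, by -0.23 in BMT18 and -2.61 in BMT8 for Psmb8 to Psmb5, and by -0.049 and -2.14 for Psmb9 to Psmb6.

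**Figure D3:**
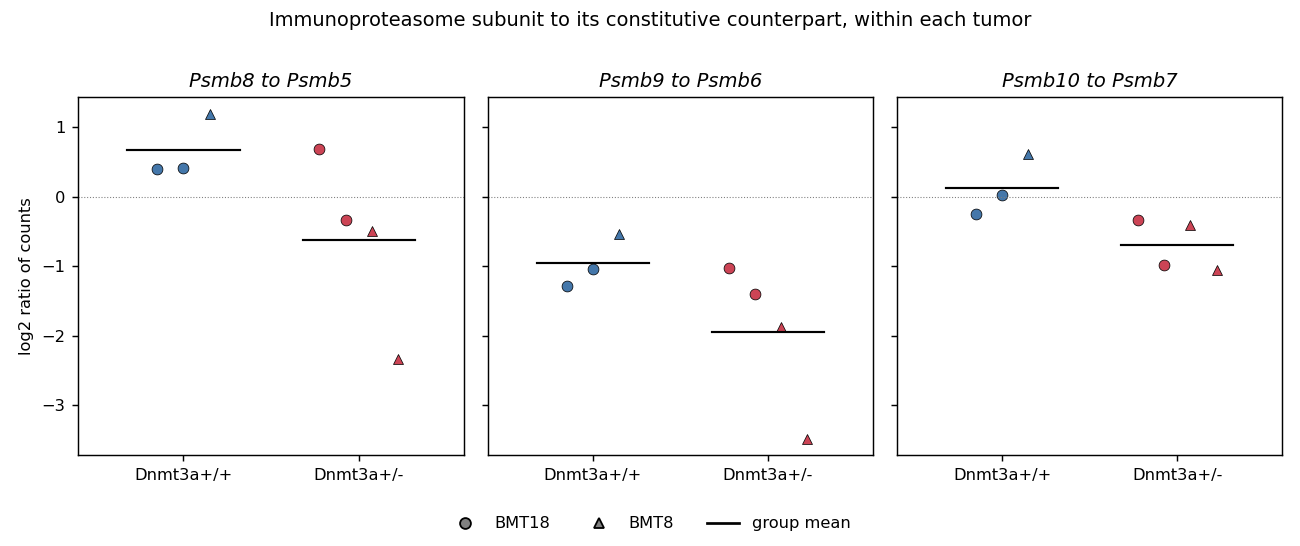
log2 ratio of the counts of each immunoproteasome subunit to those of the constitutive subunit it replaces, in each of 7 tumors, with group means as bars, circles for BMT18 and triangles for BMT8. Group means are 0.66 and -0.62 for Psmb8 to Psmb5, -0.96 and -1.94 for Psmb9 to Psmb6, and 0.13 and -0.70 for Psmb10 to Psmb7, and only in the last panel are the groups apart.

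Genes that work beside the set differed among themselves. The 11 other subunits of the proteasome core had a median log2 fold change of -0.22, with 11 of 11 below 0 (7 of 11 with library size alone as scaling), and 0 had an unadjusted p under 0.05. Of the 18 genes of the 19S cap, which feeds proteins into the core, 12 were lower and 6 higher with a median of -0.0081 (1 of 18 lower and 0.21 with library size alone; 8 of 18 lower with DESeq2's scaling). Of 5 assembly factors 4 were lower with a median of -0.058 (0 of 5 and 0.16 with library size alone), and 0 of the cap and assembly genes had an unadjusted p under 0.05. The interferon-inducible PA28 activator is made of Psme1 and Psme2. Psme2 was at 322, 339 and 631 CPM with Dnmt3a+/+ BM and at 306, 241, 278 and 272 CPM with Dnmt3a+/- BM, with no overlap and a log2 fold change of -0.65 ± 0.26 (unadjusted p = 0.0370, adjusted p = 0.432, edgeR). Without Dnmt3a+/+ replicate 3 it was -0.27. Psme1 also did not overlap, with a log2 fold change of -0.52 ± 0.27 that was -0.11 without Dnmt3a+/+ replicate 3, whereas Psme3, which forms a separate nuclear activator, had one of 0.13 ± 0.14.

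Of the 6 genes of the loading complex other than the transporter, Tapbp included, 1 was lower at an unadjusted p under 0.05 (5.20% of all genes). This was Tapbpl, a tapasin-related peptide editor, at 79.8, 101 and 120.5 CPM with Dnmt3a+/+ BM and at 77.8, 43.1, 70.4 and 44.3 CPM with Dnmt3a+/- BM. Its groups did not overlap, by a narrow margin between 77.8 and 79.8 CPM, and its log2 fold change was -0.77 ± 0.26 (unadjusted p = 0.0195, adjusted p = 0.406, edgeR). The log2 fold change of Tapbpl was -0.57 in BMT18 alone and -0.62 without Dnmt3a+/+ replicate 3. The general chaperones that also fold class I heavy chains had log2 fold changes of -0.03 (Calr), 0.23 (Canx) and -0.09 (Pdia3); Canx was higher without overlap, as were 6.12% of all genes. The peptide-trimming enzyme Erap1 had one of -0.28.

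**Figure D4:**
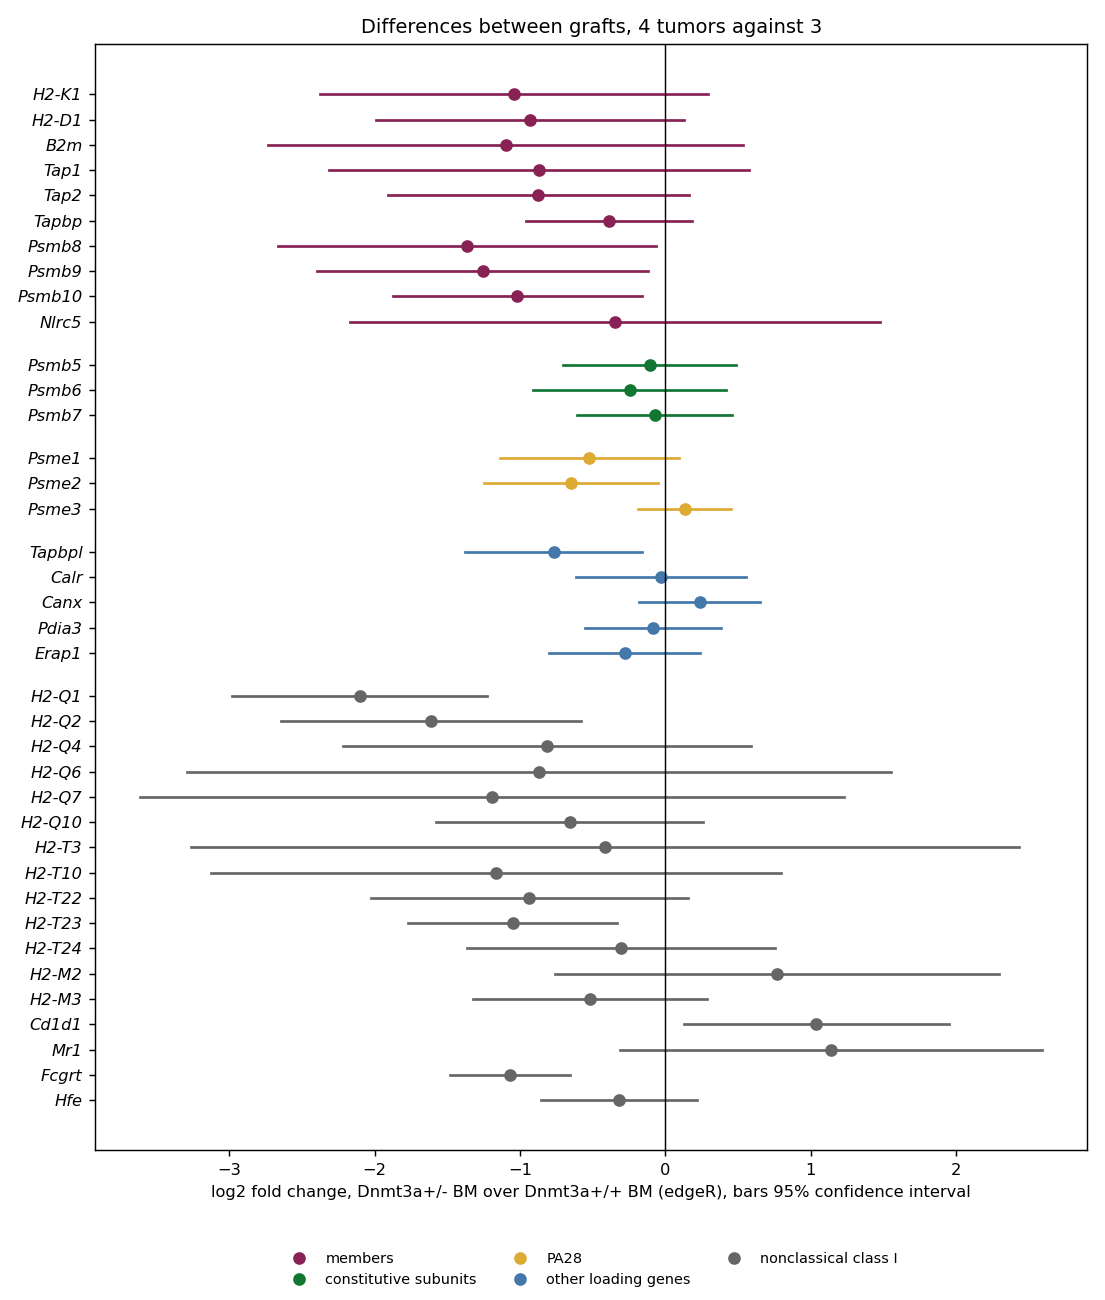
log2 fold change of tumors with Dnmt3a+/- BM over those with Dnmt3a+/+ BM (x axis) for the 10 genes and for constitutive subunits, PA28, other loading genes and the 17 tested nonclassical class I genes, as edgeR estimates with 95% confidence intervals. Of the 10 genes of the set, the intervals of Psmb8, Psmb9 and Psmb10 lie below 0 and the other 7 include 0; the intervals are not adjusted for the number of genes.

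Nonclassical class I genes encode related heavy chains, many of which also pair with B2m. Of 18 listed, 17 were tested, of which 14 were lower, and the list's median was -0.81 on the log2 scale. It was -0.41 without Dnmt3a+/+ replicate 3, -0.33 with the replicate number as a block and 0.075 in BMT18 alone, where 8 of 17 were lower. At an unadjusted p under 0.05, 4 were lower (5.20% of all genes) and 1 was higher (5.83%), and 5 were lower without overlap (6.32%). edgeR called 0 of the 17, and DESeq2 called 3 (1.90% of all genes), namely H2-Q1, H2-Q2 and Fcgrt. Fcgrt, the heavy chain of the neonatal Fc receptor that binds IgG, was at 60.8, 60.4 and 60.5 CPM with Dnmt3a+/+ BM and at 26.2, 22.2, 35.8 and 31.2 CPM with Dnmt3a+/- BM. The groups stood clearly apart and the controls barely varied, so that Fcgrt did not follow the high level of Dnmt3a+/+ replicate 3 seen for its partner B2m. Its log2 fold change was -1.07 ± 0.18 (adjusted p = 0.361 in edgeR and 0.000542 in DESeq2), and -1.31 in BMT18 alone.

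H2-Q2 was at 82.9, 70.8 and 84.9 CPM with Dnmt3a+/+ BM and at 42.5, 22.9, 30 and 8.73 CPM with Dnmt3a+/- BM. For H2-Q2 the log2 fold change was -1.61 ± 0.44 (adjusted p = 0.361 in edgeR and 0.0363 in DESeq2), and -1.23 in BMT18 alone. H2-Q1 was low throughout, from 4.99 to 11.3 CPM with Dnmt3a+/+ BM and from 1.30 to 2.45 CPM with Dnmt3a+/- BM. H2-T23, which encodes Qa-1, the ligand of the NKG2A receptor, was at 501, 433 and 714 CPM with Dnmt3a+/+ BM and at 386, 209, 289.5 and 176 CPM with Dnmt3a+/- BM, without overlap (log2 fold change -1.05 ± 0.31, adjusted p = 0.377, edgeR). The log2 fold change of H2-T23 was -0.65 in BMT18 alone and -0.82 without Dnmt3a+/+ replicate 3. Cd1d1, which presents lipids to NKT cells, was the gene on the higher side, at 3.23 to 4.37 CPM with Dnmt3a+/+ BM and 4.37 to 12.9 CPM with Dnmt3a+/- BM. Related heavy chain genes of the H2 family may share reads, and their separate estimates would then depend on how the counting divided them. How alike their transcripts are was not examined. Summing all 16 heavy chain genes of the H2 family gave a log2 fold change of -0.99 ± 0.53 (unadjusted p = 0.0971 from edgeR), and -0.04 in BMT18 alone. H2-K1 and H2-D1 dominated that sum, with 6360 of 7636 CPM in Dnmt3a+/+ replicate 1.

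Among 21 regulators of class I promoters and of interferon signaling, 17 were lower (49.8% of all genes), 3 of them at an unadjusted p under 0.05 (5.20%). Their median log2 fold change was -0.21. With library size alone as scaling 10 of 21 were lower with a median of 0.038, and all genes together had a median of 0.21. Irf1, an interferon-induced activator of class I and immunoproteasome genes, was at 221, 271 and 396 CPM with Dnmt3a+/+ BM and at 206, 186, 209 and 122 CPM with Dnmt3a+/- BM. The groups did not overlap, and the log2 fold change of Irf1 was -0.71 ± 0.26 (unadjusted p = 0.0287, adjusted p = 0.420, edgeR), against -0.32 in BMT18 alone. The others were Rfxank, a subunit of the RFX complex that binds the X box (log2 fold change -0.47, adjusted p = 0.407, edgeR), and Ifngr1, a chain of the interferon gamma receptor (-0.54, adjusted p = 0.433, edgeR). Ifng itself was near the detection limit, between 0.349 and 1.47 CPM with Dnmt3a+/+ BM and between 0 and 1.30 CPM with Dnmt3a+/- BM, and Dnmt3a+/- replicate 4 had 0 counts.

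Other interferon-induced genes had their lowest mean levels in Dnmt3a+/- replicate 4 and their highest in Dnmt3a+/+ replicate 3, although the interferon gamma list was about as high in Dnmt3a+/- replicate 2, from BMT18 (1.07 against 1.08 above the mean over tumors, log2 scale). For comparison, 49.8% of all genes tested were lower with Dnmt3a+/- BM, and 5.20% were lower at an unadjusted p under 0.05 (edgeR). Of 19 tested genes induced by interferon gamma, 13 were lower with a median log2 fold change of -0.29, and 1 was lower at that threshold. With library size alone as scaling the median was 0.032. In BMT18 alone the median was 0.70, against 0.024 for all genes. There 6 genes of the list were higher at that threshold, for which the share of all genes was not taken. Of 20 genes induced by type I interferon, 17 were lower with a median of -0.75 (0.35 in BMT18 alone), and 4 had an unadjusted p under 0.05, among them Irf7 (log2 fold change -1.36, adjusted p = 0.372 in edgeR and 0.0467 in DESeq2), Oas1a (-0.90) and Oasl1 (-0.92). Of 9 class II genes, 8 were lower with a median of -1.68 and 3 had an unadjusted p under 0.05; without Dnmt3a+/+ replicate 3 the median was -1.04, in BMT18 alone it was -0.33, and in both 0 had such a p. H2-Aa, a class II α chain, was at 339, 374 and 767 CPM with Dnmt3a+/+ BM and at 316, 109, 81.9 and 24.2 CPM with Dnmt3a+/- BM, without overlap (adjusted p = 0.431, edgeR).

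**Figure D5:**
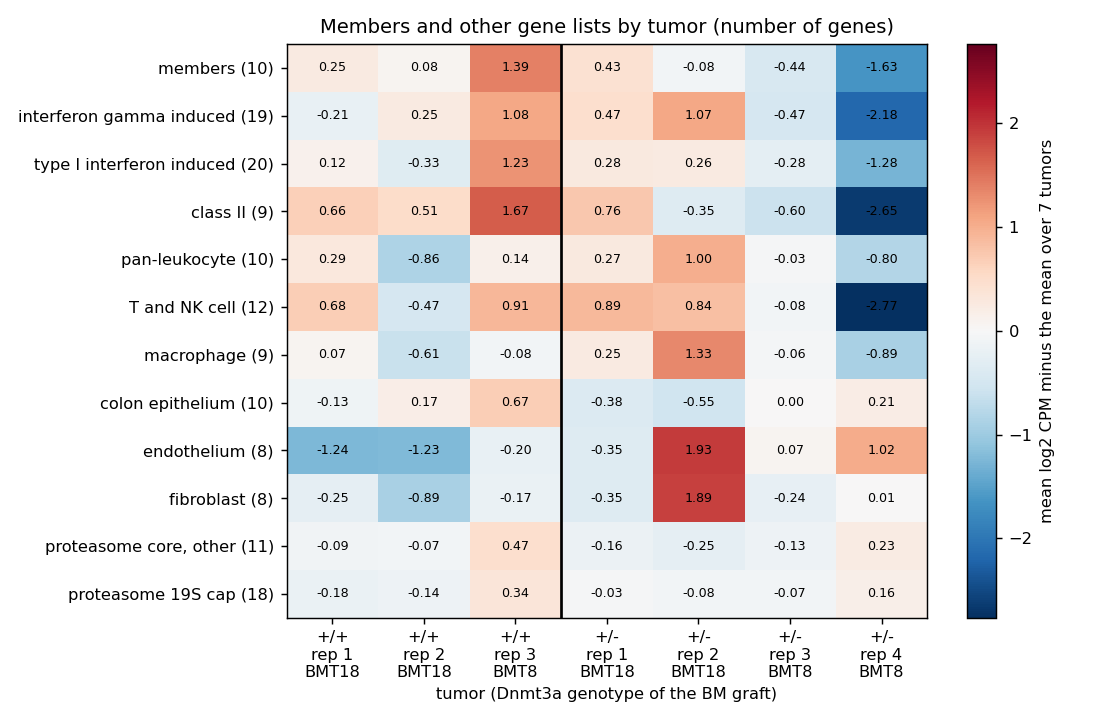
Mean log2 CPM of the 10 genes and of other gene lists in each of 7 tumors, after the mean over the tumors was taken off each gene (color and printed value; number of tested genes in brackets). The 10 genes run from 1.39 in Dnmt3a+/+ replicate 3 to -1.63 in Dnmt3a+/- replicate 4, both from BMT8, and the class II list from 1.67 to -2.65 in the same tumors, while the pan-leukocyte list runs from 0.14 to -0.80 there and has its highest value, 1.00, in Dnmt3a+/- replicate 2.

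Cell type markers followed several patterns. The 10 pan-leukocyte markers summed to 162, 89.0 and 154 CPM with Dnmt3a+/+ BM and to 163, 274, 145 and 88.8 CPM with Dnmt3a+/- BM, and 0 of the 10 had an unadjusted p under 0.05. T and NK cell markers (14 listed, 12 tested, 0 with an unadjusted p under 0.05) summed to between 12.4 and 33.7 CPM with Dnmt3a+/+ BM and between 2.14 and 36.2 CPM with Dnmt3a+/- BM. The value of 2.14 belonged to Dnmt3a+/- replicate 4, where Cd8a and Cd8b1 were at 0 and where 9 of the 10 genes were lowest. Macrophage markers summed to between 64.5 and 116 CPM with Dnmt3a+/+ BM and between 57.5 and 253 CPM with Dnmt3a+/- BM. Of 9 tested, 7 were higher with a median log2 fold change of 0.76 (0.074 without Dnmt3a+/- replicate 2). Of 6 tested dendritic cell markers 4 were higher with a median of 0.40 (0.097 without Dnmt3a+/- replicate 2). Of 8 neutrophil markers 5 were lower with a median of -0.058. In these 3 lists 0 genes had an unadjusted p under 0.05 (edgeR). Of 10 epithelial markers 9 were lower with a median log2 fold change of -0.57, and their sum was highest, at 38798 CPM, in Dnmt3a+/+ replicate 3. Of 8 endothelial markers 8 were higher, 6 of them at an unadjusted p under 0.05 (5.83% of all genes), with a median of 1.74. Their sum was highest, at 144 CPM, in Dnmt3a+/- replicate 2. With a tumor left out all 8 stayed higher, but the number at that threshold ran from 2 to 8. It was 2 without Dnmt3a+/+ replicate 1 or 2, 3 without Dnmt3a+/- replicate 2 and 8 without Dnmt3a+/- replicate 1. In BMT18 alone it was 2, and with the replicate block 1. Fibroblast markers were higher for 8 of 8 with a median of 1.09, and the median was 0.22 without Dnmt3a+/- replicate 2, where they summed to 1031 CPM. All 5 tested B and plasma cell markers were higher with a median of 1.35, and 0 had an unadjusted p under 0.05. The part of cell composition in the class I values was not tested.

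Across the 7 tumors the 10 genes followed each other closely. Pearson's r between log2 CPM values had a median of 0.938 over 45 pairs, from 0.302 for Psmb10 and Nlrc5 to 0.996 for Psmb8 and Psmb9, and it was 0.924 for Tap1 and Psmb9, the pair that shares a promoter. All pairs share the same libraries, and the tumors at both ends are from BMT8, so these values are a description only. Among 9475 genes with a mean of at least 10 CPM, those outside every list whose pattern over the 7 tumors was most like the mean of the set were Il18bp (r = 0.985), Zbp1 (0.982), Ube2l6 (0.978), Apol9a (0.971) and Herc6 (0.966). Il18bp, which encodes a decoy for interleukin 18, was at 19.3, 11.9 and 38.4 CPM with Dnmt3a+/+ BM and at 17.3, 9.39, 7.68 and 2.16 CPM with Dnmt3a+/- BM. Zbp1, a sensor of Z-form nucleic acids, was at 85.0, 90.0 and 237 CPM with Dnmt3a+/+ BM and at 80.7, 68.5, 60.3 and 27.1 CPM with Dnmt3a+/- BM.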

How the data were processed

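RNA of 7 whole colon tumors was enriched for poly(A) and sequenced from directional libraries. Per the labels and the study's methods, the authors trimmed reads with Trimmomatic, aligned them to mm10 with STAR and estimated counts per gene with RSEM; the annotation release is not given in the sources used here. The deposited values are these estimated counts, unnormalized and 100% whole numbers. The 10 genes and all lists were chosen with earlier results of these data known. Counts were fitted with edgeR 4.0.16 in R 4.3.3 (TMM, filterByExpr, quasi-likelihood test, Benjamini-Hochberg adjustment over 15810 genes, no covariate), using 3 against 4 tumors. DESeq2 1.42.0 was an alternative, with other scalings, no filter, the experiment as covariate, a replicate block, BMT18 alone, and each tumor left out in turn. The interaction and within-experiment values were chosen after the data had been seen. Ratios used a prior count of 0.5. The scripts were tested on simulated data. Genes that could be named outside the set were the testable genes of the constitutive, PA28, loading and nonclassical lists, the 3 genes of lowest p in other lists, genes fixed by name (1 is not reported here), and the 5 genes most like the set. Gbp5 and Gbp6 were not analysed here. The labels, followed here, give 4 tumors with Dnmt3a+/- and 3 with Dnmt3a+/+ BM, numbered as biological replicates. The study's figure legend and its caption for the normalized counts give the same numbers. Its summary of the supplementary material gives them for the opposite grafts. The labels do not say outright that each tumor came from its own mouse, although the study's caption for the normalized counts gives 4 and 3 as numbers of mice. The p-values measure the spread between these samples. Gene positions are from GENCODE M21 and promoters from RefSeq (GRCm38.p6).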

Additional observations from a re-analysis of the deposited data

Results flagged for a closer look

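In 3 of 46 values examined among the 4 Dnmt3a+/- tumors, a single tumor stood far from the other 3; chance gives about 1 in 20, or 2.3 values. Psmb7, the constitutive subunit replaced by Psmb10, was highest in replicate 4 (log2 CPM 8.16). Canx, a folding chaperone, was highest in replicate 2 (log2 CPM 9.15). H2-T24, a nonclassical class I gene, was lowest in replicate 4 (log2 CPM -0.84). None of the 10 class I and immunoproteasome genes had such a tumor.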

How the results depend on the processing

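Of 140 values of the 10 genes under alternatives, 131 kept their direction. In BMT18 alone the log2 fold change was positive for B2m (0.27), H2-K1 (0.0079), Tap1 (0.15), Tap2 (0.10), Tapbp (0.010) and Nlrc5 (0.90). Nlrc5 was also positive with the replicate block (0.054), without Dnmt3a+/+ replicate 3 (0.18) and without Dnmt3a+/- replicate 4 (0.025), with values from -0.77 to 0.18 when a tumor was left out. edgeR called 0 of all genes and 0 of the 10 under every alternative run, while DESeq2 called 300 of all genes and 0 of the 10. The number of the 10 lower at an unadjusted p under 0.05 was 3 as reported (5.20% of all genes). It was 1 with library size only (1.82% of all genes) and 1 with the experiment as covariate (7.32%). In BMT18 alone it was 0 (5.88%), and 1, Nlrc5, was higher. With a tumor left out it ran from 0 to 5. The 0 came without Dnmt3a+/+ replicate 3 (6.19%), Dnmt3a+/- replicate 2 (3.15%) or Dnmt3a+/- replicate 4 (5.74%). Without Dnmt3a+/- replicate 3 it was 1 (4.05%), and without Dnmt3a+/- replicate 1 it was 5 (6.04%). The cause was not tested. With a tumor left out, the log2 fold change of the summed heavy chains ranged from -1.36 (without Dnmt3a+/- replicate 1, where the unadjusted p was under 0.05) to -0.52 (without Dnmt3a+/+ replicate 3), and it was -0.039 in BMT18 alone. Library size alone moved the median of all genes to 0.21, and the median of the set to -0.73.

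To look for pairs, the mean of each graft group was first taken off the log2 CPM of each gene. Samples with the same replicate number then correlated at 0.57, 0.071 and -0.038, so the numbers are not taken as pairs. The replicate block left out Dnmt3a+/- replicate 4. With it, 1 of the 10 was lower at an unadjusted p under 0.05 (6.74% of all genes), and 0 genes were called. Only 1 of the 3 Dnmt3a+/+ tumors correlated best with its own number. With 3 against 3 tumors an exact permutation test cannot go below 0.1, so leaving out a Dnmt3a+/- tumor says nothing about the p of the subunit ratios. The ratio of Psmb8 to Psmb5 differed by -0.72 without Dnmt3a+/- replicate 4, and that of Psmb9 to Psmb6 by -0.48.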
